A study of Mus musculus with 12 samples.

Results

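The collagen crosslinking and folding enzymes were 10 of the 45859 genes in the deposited tables, taken by their symbols. They were the lysyl oxidases Lox, Loxl1, Loxl2, Loxl3 and Loxl4, the lysyl hydroxylases Plod1, Plod2 and Plod3, the prolyl 3-hydroxylase P3h1, and Serpinh1, which encodes the collagen chaperone HSP47. All 10 had values in every library.

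These genes act in order along the path of a collagen molecule. In the endoplasmic reticulum (ER), lysyl hydroxylases modify lysine residues of the growing chains, P3h1 modifies prolines in a complex with Crtap and Ppib, and HSP47 binds the folded triple helix until it leaves for the Golgi. Outside the cell, the copper-dependent lysyl oxidases convert lysines and hydroxylysines into aldehydes that link neighboring collagen or elastin molecules, and the resulting stiffening of matrix is a known feature of fibrosis. In the lens, the main substrate is the capsule, a thick basement membrane rich in type IV collagen on which the lens epithelial cells (LCs) sit.

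RNA was taken from the lens capsule and attached LCs after surgical removal of the fiber cells, a mouse model of the residual cells left post cataract surgery (PCS). The 12 libraries comprised 3 from each of 4 conditions, namely WT (C57BL/6) and β8ITG-cKO (mixed C57BL/6, 129S1/Sv) mice at 0 h and at 24 h PCS, all adults of 2 months. In β8ITG-cKO mice, a floxed Itgb8 allele was deleted by the lens-specific MLR10-Cre transgene, and every library pooled several capsules. Because the genotypes also differed in strain and in the presence of Cre, these cannot be told apart. Values are FPKM (fragments per kilobase of transcript, scaled to the mapped fragments of the library), so levels are already per transcript length, and they summed to 446531 to 740140 per library, with 36.0% to 49.6% in the 10 highest genes. The depth in reads is unknown, but steps between low FPKM gave relative depths of 0.87 to 1.09.

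Itgb8, the deleted gene, had 0 h values of 7.26, 10.78 and 8.42 FPKM in WT against 6.83, 4.58 and 7.31 FPKM in β8ITG-cKO. Its 24 h values were 9.08, 8.38 and 9.58 FPKM in WT against 9.28, 11.83 and 10.28 FPKM in β8ITG-cKO. The genotypes overlapped at both times, with a log2 difference of -0.45 (adjusted p = 0.209) at 0 h and 0.19 (adjusted p = 0.486) at 24 h, so the level of the whole gene did not separate the labelled genotypes. Over time it rose by 0.68 in β8ITG-cKO (adjusted p = 0.0132). Only part of the gene is floxed, and a value per gene does not measure that part.

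The 8 lens epithelium markers were above 0 in every library, with Cryab the most abundant, but they did not stay level. At 0 h, 3 of the 8 were called higher in β8ITG-cKO (4.18% of all genes), where mean levels were 142 FPKM against 74.3 FPKM in WT for Foxe3, 53.9 against 26.9 FPKM for Mab21l1, while Cdh1 was at 93.2 to 98.3 FPKM against 55.6 to 63.0 FPKM, and the median difference of the 8 was 0.14. At 24 h, 1 of the 8 was called lower in β8ITG-cKO (0.644% of all genes), Cdh1, with 37.7 to 46.5 FPKM against 75.2 to 89.98 FPKM in WT, and 4 of 8 had β8ITG-cKO values below all WT values (9.0% of all genes). Over time, 7 of 8 were called lower in β8ITG-cKO (10.7% of all genes), and 3 lower and 1 higher in WT (8.81% and 20.9%). These and the other single markers given with values here were named after their values were seen. Markers of other cells also varied between conditions. The summed FPKM of 8 photoreceptor markers was 334.5, 1132.77 and 135.15 in WT 0 h, 71.2, 125.45 and 136.04 in WT 24 h, 322.64, 173.08 and 257.92 in β8ITG-cKO 0 h, and 962.5, 811.98 and 957.75 in β8ITG-cKO 24 h. All 8 photoreceptor markers passed the test as higher in β8ITG-cKO than in WT at 24 h (5.64% of all genes did), and WT 0 h replicate 2 stood apart from its group. Neutrophil markers summed to at most 1.41 FPKM at 0 h, to 44.79 to 62.16 FPKM in WT 24 h and to 11.99 to 33.79 FPKM in β8ITG-cKO 24 h, led by S100a9, with Ly6g and Mpo at 0 in every library. Macrophage markers summed to 5.09 to 21.11 FPKM, pigment cell markers to 12.67 to 86.48 FPKM, and endothelial and red cell markers, led by Hba-a1, to 4.88 to 131.75 FPKM, lowest in β8ITG-cKO 0 h. The corneal epithelium list reached 138.5 to 911.42 FPKM, nearly all of it Aldh3a1 and highest in β8ITG-cKO 0 h (535.63 to 911.42 FPKM), with Krt12, Krt5 or Krt14 listed at 0 in 4 libraries. Lens fiber markers summed to 4139.43 to 6202.35 FPKM at 0 h and 728.61 to 1469.32 FPKM at 24 h. Of the corneal and scleral stroma list, which is rich in collagen-making cells, Kera was at 0 in 11 of 12 libraries and Lum at 0.3 FPKM or less, although Ogn and Pdgfra were detected. The most abundant gene of this list was Ogn or Pdgfra in every library, so its sums mainly reflect these genes and not Kera, Lum or Dcn. The list summed to 61.85 to 63.53 FPKM in WT 0 h and 83.64 to 101.44 FPKM in β8ITG-cKO 0 h. At 24 h it summed to 14.51 to 33.1 FPKM in WT and 22.35 to 35.1 FPKM in β8ITG-cKO. Its members went in opposite directions at 0 h, where 1 of 5 tested was called higher in β8ITG-cKO and 1 lower (4.18% and 2.75% of all genes). Angptl7 averaged 15.2 FPKM in β8ITG-cKO and 1.52 FPKM in WT (adjusted p = 0.00332), whereas Dcn had 2.78, 1.91 and 2.5 FPKM in WT, against 0.0, 0.17 and 0.11 FPKM in β8ITG-cKO (adjusted p = 0.00303). Dcn passed the filter of a mean of 0.5 FPKM only through its WT libraries, so it could be tested only because it was high there. Pdgfra, at 39.5 and 24.8 FPKM, did not pass (adjusted p = 0.123). The part of these cells in the results below was not tested.

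The 10 genes covered a wide range of levels. In WT 0 h, Serpinh1 was highest with 43.5 ± 1.74 FPKM (SD, n = 3), followed by Loxl1 with 29.4 ± 1.98 FPKM, Loxl2 with 24.6 ± 2.89 FPKM and Plod2 with 21.5 ± 2.80 FPKM, and the last of these overlapped Loxl2. P3h1, Plod3 and Plod1 had means of 7.47, 6.23 and 6.18 FPKM, with Plod3 and Plod1 overlapping, and Loxl3 had 1.37 FPKM. Lox and Loxl4 were lowest, at 0.326 ± 0.221 and 0.275 ± 0.132 FPKM, and overlapped. Serpinh1 was the highest of the 10 in all 4 conditions and overlapped with none of the other 9. By mean level, Plod3 was 6th of 10 in both 0 h conditions and 4th in both 24 h conditions, where its libraries overlapped those of Plod2.

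**Figure D1:**
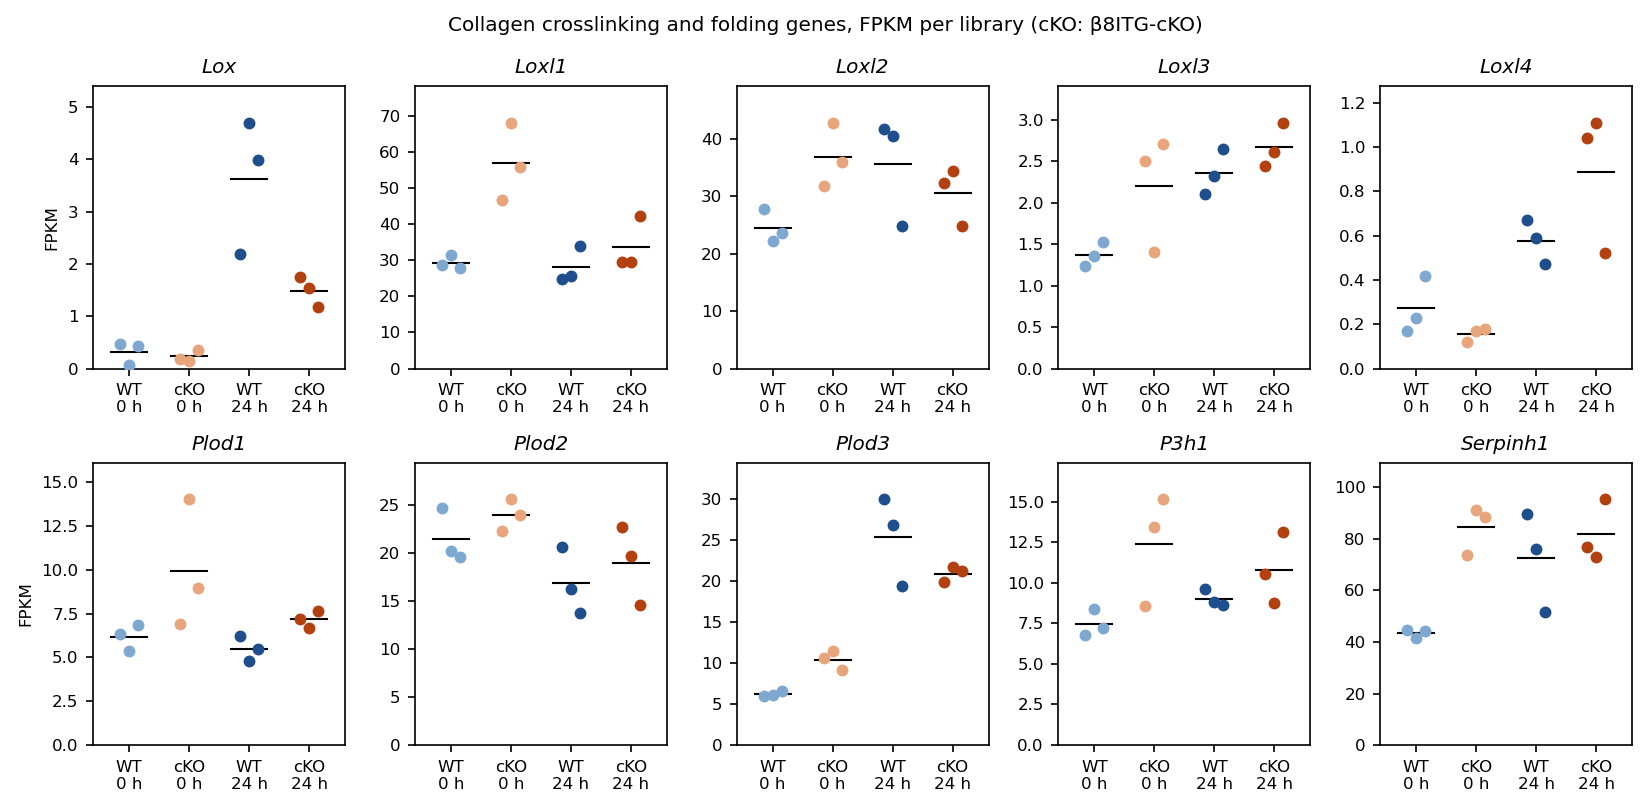
FPKM (linear axis from 0) of each of the 10 genes in the 12 libraries, by genotype and time, with points for libraries and a line for the mean of each condition. Lox and Plod3 at 24 h lie above every 0 h library of the same genotype, and Serpinh1 and Loxl1 are higher in all 3 β8ITG-cKO 0 h libraries than in the WT 0 h libraries.

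By 24 h PCS, Lox, Plod3, Serpinh1 and Loxl3 had risen in WT LCs, 4 of the 9 genes tested, against 20.9% of all genes called higher and 29.7% in either direction (limma-trend, adjusted p of at most 0.05). In this bulk RNA, a change in the number of cells of a type and a change in RNA per cell cannot be told apart. None of the 9 tested fell, where 8.81% of all genes did. Of the 4 called, Lox and Plod3 also met the study's own criteria of a fold change, a difference and a level above 2 (in FPKM). Called genes that met them were 14.3% of all genes in either direction. For 5 of 9 genes every 24 h library was above every 0 h library and for 0 below, beside 31.3% and 15.6% of all genes. Loxl4 was below the filter of a mean of 0.5 FPKM, and Lox passed that filter only through its 24 h libraries, so that it could be tested only because it was high there. The median log2 change of the 9 was 0.49, beside 0.16 for all genes tested. FPKM ran slightly higher at 24 h for most genes: rescaling every library to the same median moved the median of all genes by 0.21 in WT and 0.23 in β8ITG-cKO. After rescaling, 2 of the 10 genes were higher (Lox and Plod3) and 1 lower (Plod2) in WT, and the share of higher calls among all called genes went from 70.3% to 47.3%. Leaving out any 1 library other than WT 24 h replicate 3 left 2 calls, Lox and Plod3.

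In β8ITG-cKO LCs, Lox, Plod3 and Loxl4 rose and Loxl1 fell, 4 of 10 tested, beside 35.4% of all genes called higher and 10.7% lower. Lox and Loxl4 passed the filter only through their 24 h libraries. Plod3 met the study's criteria, as did 15.1% of all genes. The groups did not overlap for 3 that were higher and 1 that was lower, beside 42.9% and 14.0% of all genes. The median change of the 10 was -0.11, beside 0.23 for all genes. After rescaling, 2 were higher (Lox and Plod3) and 3 lower (Loxl1, Loxl2 and Plod2), and the share of higher calls among all called genes went from 76.7% to 51.7%. Of all genes, 46.1% were called in either direction.

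Between genotypes, calls were made at 0 h and none at 24 h. Serpinh1, Loxl1 and Plod3 were higher in β8ITG-cKO than in WT at 0 h, 3 of 8 tested, beside 4.18% of all genes called higher and 2.75% lower (6.94% in either direction). None met the study's criteria, which 2.52% of all genes did. Lox and Loxl4 were below the filter there. All 8 differences were above 0, with a median of 0.60 beside 0.02 for all genes (and 0.14 for the lens epithelium markers, of which 3 of 8 were called higher), and for 6 of 8 every β8ITG-cKO library was above every WT library, beside 18.0% of all genes, and for 0 below, beside 12.8%. Without WT 0 h replicate 2, 3 were called. A single call, Serpinh1, was left without WT 0 h replicate 1 or without β8ITG-cKO 0 h replicate 3. The calls over all genes also dropped in these 2 fits, from 1020 to 269 and 136. At 24 h PCS, 0 of 10 genes passed, where 6.29% of all genes did (5.64% higher and 0.644% lower, and 3.66% by the study's criteria), while 2 (Lox and Plod1) had an unadjusted p under 0.05, as did 20.4% of all genes. For these 2 the groups did not overlap, Lox lower and Plod1 higher in β8ITG-cKO, beside 9.0% and 17.5% of all genes. The share of higher calls among all called genes at 24 h was 89.8%, and 77.0% after rescaling.

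The change over time itself was compared between the genotypes in a fit of all 12 libraries. Plod3 passed this test, 1 of 9 tested, with a smaller rise in β8ITG-cKO, where 2.56% of all genes were called in that direction, 6.83% in the other and 9.39% in either. The coefficients of 8 of 9 genes were below 0, with a median of -0.67 beside 0.00 for all genes, and 5 of 9 had an unadjusted p under 0.05, beside 24.2% of all genes. Each comparison shares its libraries with others, since the 4 conditions are used in pairs, so a high 0 h level in β8ITG-cKO enters the change over time as well.

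**Figure D2:**
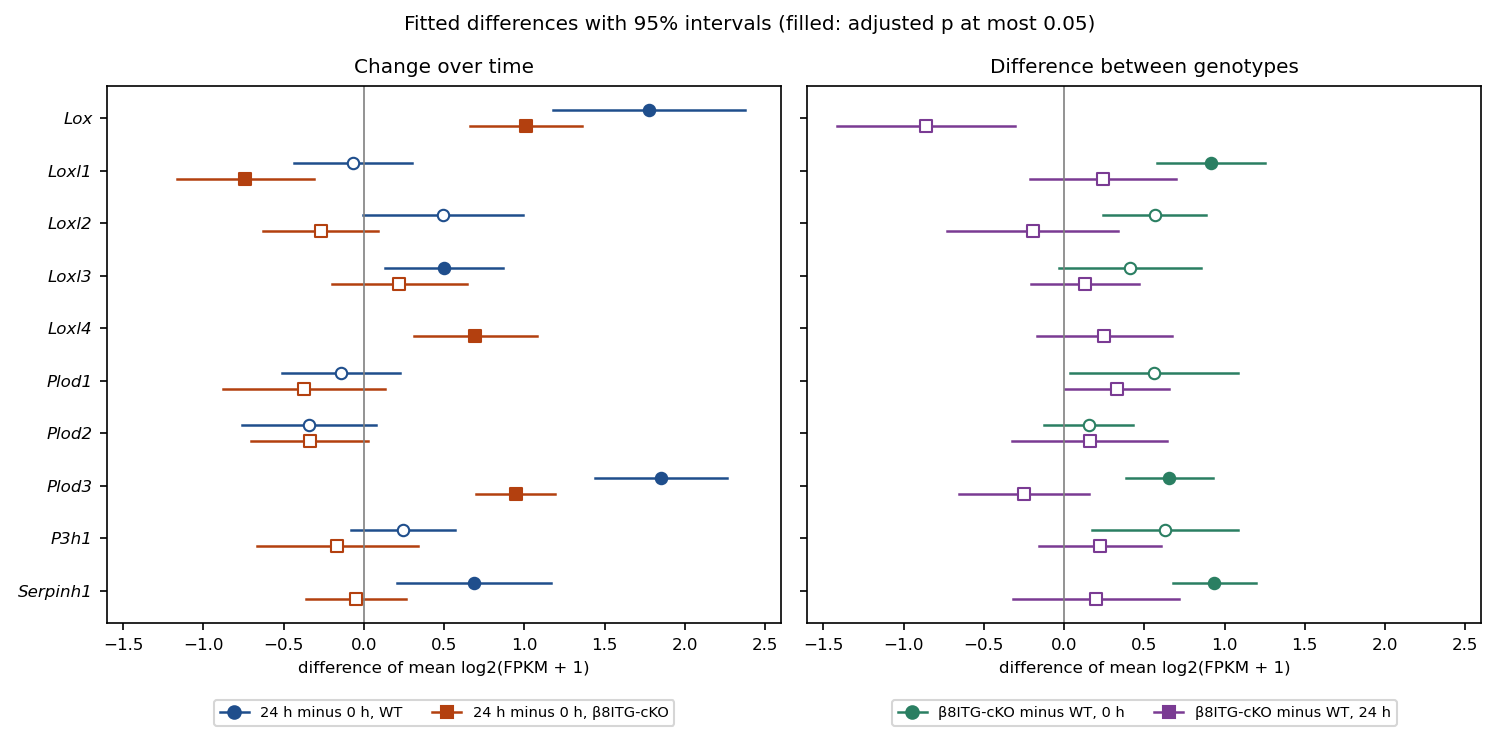
Fitted differences of mean log2(FPKM + 1) on the x axis for each gene, with 95% intervals, over time (left) and between genotypes (right), filled where the adjusted p was at most 0.05. Genes below the filter of a comparison have no symbol there, and Plod3 and Lox are the genes with filled symbols for both genotypes on the left.

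Lox, the founding member of the lysyl oxidase family, lies on chromosome 18 from 52516060 to 52529867 (GRCm38, as all positions here). It was at 0.46, 0.07 and 0.44 FPKM in WT 0 h and at 2.19, 4.70 and 3.98 FPKM in WT 24 h. In β8ITG-cKO it was at 0.18, 0.15 and 0.36 FPKM at 0 h and 1.75, 1.54 and 1.17 FPKM at 24 h. All 24 h libraries were above all 0 h libraries, and at 24 h every β8ITG-cKO library was below every WT library. On the log2(FPKM + 1) scale, which understates changes of low genes, the rise was 1.77 (SE 0.26, adjusted p = 0.00284) in WT and 1.01 (SE 0.15, adjusted p = 0.00128) in β8ITG-cKO, and the ratios of mean FPKM were 11.1 and 6.45. Neither call was lost under the 11 alternatives in which Lox could be tested, and a minimum mean of 2 FPKM left it untested.

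The difference in Lox between genotypes at 24 h was -0.86 (95% interval -1.41 to -0.31, adjusted p = 0.0846), a mean FPKM 2.44 times as high in WT, and did not pass. It passed in 1 fit over all 12 libraries (adjusted p = 0.0283) and without WT 24 h replicate 1, the WT library with the least Lox (-1.11, adjusted p = 0.0191), and over all 12 alternatives the adjusted p ran from 0.0191 to 0.251. The difference between the 2 rises was -0.76 (SE 0.31, adjusted p = 0.148), and passed only without WT 24 h replicate 1 (-1.01, adjusted p = 0.0401). Lox also stands on gene lists that the study drew up from these libraries, so its direction here is not independent evidence. Among them are lists of genes with a weaker rise in β8ITG-cKO by 24 h. The study thus listed Lox by its own statistics, which were not used here, whereas the limma-trend difference at 24 h did not pass.

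Loxl1, which is known for crosslinking elastin, was at 28.64, 31.62 and 27.88 FPKM in WT 0 h and 46.64, 68.14 and 55.84 FPKM in β8ITG-cKO 0 h. At 24 h it was at 24.83, 25.79 and 34.12 FPKM in WT, against 29.45, 29.49 and 42.37 FPKM in β8ITG-cKO. The β8ITG-cKO 0 h libraries were thus above all 9 others. The genotype difference at 0 h was 0.92 (SE 0.15, adjusted p = 0.0167), and it was lost without WT 0 h replicate 1 (adjusted p = 0.0638), without β8ITG-cKO 0 h replicate 3 (0.0788) and with no filter on low genes (0.0604). The fall by 24 h in β8ITG-cKO was -0.74 (SE 0.18, adjusted p = 0.0128) and passed under all 12 alternatives, whereas the change in WT was -0.07 (95% interval -0.44 to 0.30). The test of the difference between these changes gave -0.67 (adjusted p = 0.126).

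Loxl2, which can crosslink type IV collagen, was at 27.82, 22.28 and 23.63 FPKM in WT 0 h, 41.83, 40.50 and 24.89 FPKM in WT 24 h, 31.91, 42.84 and 35.96 FPKM in β8ITG-cKO 0 h, and 32.40, 34.44 and 24.82 FPKM in β8ITG-cKO 24 h. The β8ITG-cKO 0 h libraries were all above the WT 0 h libraries (difference 0.56, adjusted p = 0.0517). In WT over time, replicate 3 at 24 h lay within the range of the 0 h libraries, and the change of 0.49 (adjusted p = 0.122) became 0.73 (adjusted p = 0.011) without it. The files place Loxl2 on chromosome 14 from 69555399 to 69695834, a span shared with 4 other listed genes, and whether they share reads was not tested.

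Loxl3 and Loxl4 were low throughout. Loxl3 was at 1.23, 1.36 and 1.52 FPKM in WT 0 h and 2.1, 2.32 and 2.65 FPKM in WT 24 h, which did not overlap. Loxl3 rose by 0.50 (SE 0.16, adjusted p = 0.0481), a call lost in 9 of the 11 alternatives that tested it. In β8ITG-cKO it was at 2.50, 1.40 and 2.70 FPKM at 0 h and 2.44, 2.61 and 2.96 FPKM at 24 h, with a change of 0.22 (95% interval -0.20 to 0.64). Loxl4 rose in β8ITG-cKO from 0.12, 0.17 and 0.18 FPKM to 1.04, 1.11 and 0.52 FPKM (0.69, SE 0.17, adjusted p = 0.0109). With means of 0.158 and 0.891 FPKM it just passed the filter, by its 24 h values alone, and it fell below it in 5 of 12 alternatives, while the other 7, with the fit with no filter among them, gave adjusted p from 0.00423 to 0.0332. In WT it was at 0.17, 0.23 and 0.42 FPKM at 0 h and 0.67, 0.59 and 0.47 FPKM at 24 h, also without overlap, and a fit with no filter gave 0.31 (adjusted p = 0.144). Within the summed FPKM of the 5 lysyl oxidase genes, the Lox share was 0.581% ± 0.394 (SD, n = 3) in WT 0 h and 5.15% ± 1.82 in WT 24 h, against 0.245% ± 0.123 and 2.15% ± 0.494 in β8ITG-cKO. Loxl1 and Loxl2 together supplied nearly all of the rest.

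The lysyl hydroxylase genes changed in their proportions. Plod3, whose protein also adds the sugars of hydroxylysine and is needed for type IV collagen, was at 6.03, 6.07 and 6.57 FPKM in WT 0 h and 29.99, 26.91 and 19.44 FPKM in WT 24 h. In β8ITG-cKO it was at 10.67, 11.42 and 9.12 FPKM at 0 h and 19.85, 21.72 and 21.21 FPKM at 24 h. Every 24 h library was above every 0 h library, and every β8ITG-cKO 0 h library was above every WT 0 h library. The rise was 1.85 (SE 0.18, adjusted p = 0.000599), a ratio of means of 4.09, in WT and 0.95 (SE 0.11, adjusted p = 0.000337), a ratio of 2.01, in β8ITG-cKO, and each passed under all 12 alternatives.

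At 0 h, Plod3 was higher in β8ITG-cKO by 0.65 (SE 0.12, adjusted p = 0.0219), and at 24 h the difference was -0.25 (95% interval -0.65 to 0.15). The 0 h call was lost in 6 of 12 alternatives, among them each of the 4 fits without WT 0 h replicate 1 or without a β8ITG-cKO 0 h library (adjusted p = 0.064 to 0.0834). The difference between the rises was -0.90 (SE 0.21, adjusted p = 0.0213) and remained past the threshold in 15 of 17 alternatives, the exceptions being without β8ITG-cKO 0 h replicate 2 (-0.84, adjusted p = 0.0608) and without β8ITG-cKO 24 h replicate 1 (-0.87, adjusted p = 0.0511). The files place Plod3 on chromosome 5 from 136982194 to 136996646, which also spans Znhit1 and Mir702.

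Plod2, which modifies the telopeptide lysines used in fibrotic crosslinks, was at 24.68, 20.17 and 19.57 FPKM in WT 0 h and 20.62, 16.19 and 13.77 FPKM in WT 24 h. In β8ITG-cKO it was at 22.28, 25.56 and 23.91 FPKM at 0 h and 22.70, 19.70 and 14.56 FPKM at 24 h. The groups overlapped in each comparison. Its changes of -0.34 in WT (adjusted p = 0.185) and -0.34 in β8ITG-cKO (adjusted p = 0.114) did not pass, but after rescaling both did, at -0.60 (adjusted p = 0.0315) and -0.62 (adjusted p = 0.0281). Plod1, which modifies lysines of the triple helix, ranged from 4.81 to 6.87 FPKM in the 6 WT libraries and from 6.68 to 14.03 FPKM in the 6 β8ITG-cKO libraries. Its β8ITG-cKO libraries were above the WT libraries at each time, with differences of 0.56 (adjusted p = 0.18) at 0 h and 0.33 (adjusted p = 0.235) at 24 h.

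Shares within a library do not depend on its scaling. Plod3 made up 16.29%, 19.22% and 19.9% of the summed Plod1, Plod2 and Plod3 FPKM in WT 0 h and 52.75%, 56.17% and 50.24% in WT 24 h. In β8ITG-cKO its share was 26.78%, 22.39% and 21.73% at 0 h and 39.91%, 45.15% and 48.85% at 24 h. The 4 conditions did not overlap in any of the 4 comparisons, and WT moved from below β8ITG-cKO at 0 h to above it at 24 h. Mean shares were 18.5% ± 1.92 and 53.1% ± 2.97 in WT and 23.6% ± 2.75 and 44.6% ± 4.49 in β8ITG-cKO (SD, n = 3). The exact two-sided permutation test gave p = 0.1 for each, the smallest that 3 against 3 allows, and this share was chosen after the values had been seen. Plod2 went from 63.3% to 35.2% in WT and from 54.3% to 40.0% in β8ITG-cKO.

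**Figure D3:**
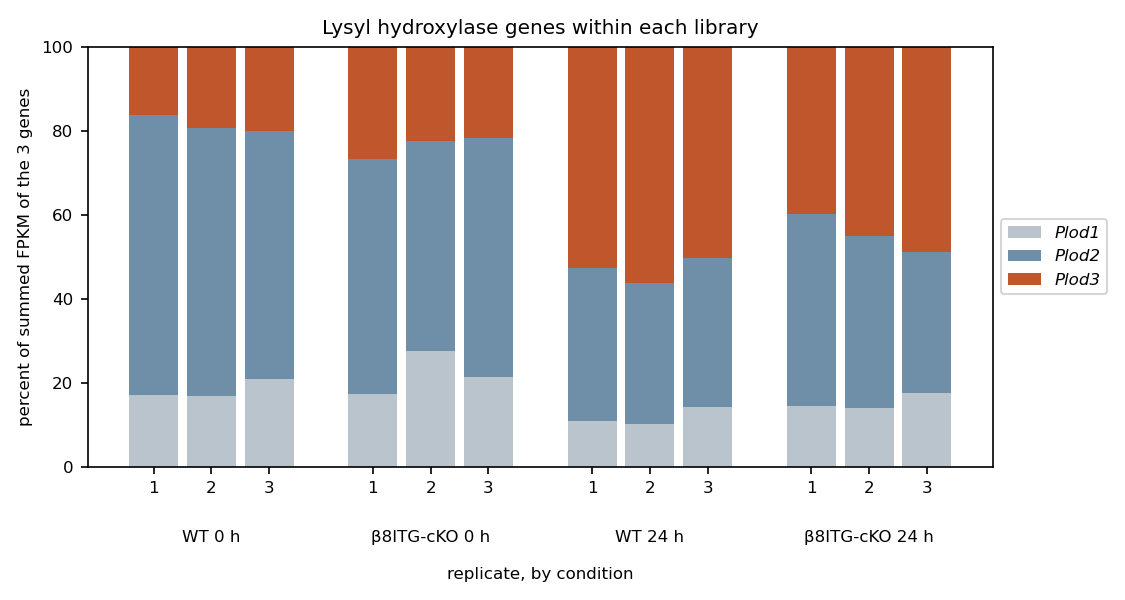
Percent of the summed FPKM of Plod1, Plod2 and Plod3 (y axis) in each library, stacked by gene, with replicates grouped by condition on the x axis. The Plod3 part is 16.29% to 26.78% in the 6 libraries at 0 h and 39.91% to 56.17% in the 6 libraries at 24 h.

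P3h1 was at 6.80, 8.41 and 7.20 FPKM in WT 0 h and 8.59, 13.42 and 15.15 FPKM in β8ITG-cKO 0 h, without overlap (difference 0.63, adjusted p = 0.1). It was at 9.61, 8.79 and 8.62 FPKM in WT 24 h and 10.55, 8.73 and 13.11 FPKM in β8ITG-cKO 24 h, which overlapped. Its 0 h difference passed only without β8ITG-cKO 0 h replicate 1, the lowest of that group (0.85, adjusted p = 0.035), and no other comparison of P3h1 passed under any alternative.

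Serpinh1 was at 44.66, 41.51 and 44.36 FPKM in WT 0 h, and at 73.77, 91.38 and 88.41 FPKM in β8ITG-cKO 0 h. At 24 h it was at 89.60, 76.21 and 51.61 FPKM in WT, against 76.74, 73.17 and 95.38 FPKM in β8ITG-cKO. The WT 0 h libraries were below all 9 others, which overlapped one another. The genotype difference at 0 h was 0.94 (SE 0.11, adjusted p = 0.00582), a ratio of means of 1.94, and it passed under all 12 alternatives. The rise in WT was 0.69 (SE 0.21, adjusted p = 0.0405), but it was lost in 7 of 12 alternatives, with rescaling among them (0.43, adjusted p = 0.116). In β8ITG-cKO the change was -0.05 (95% interval -0.36 to 0.26), and the difference between the 2 changes was -0.74 (SE 0.26, adjusted p = 0.101), which passed only without WT 24 h replicate 3 (-0.96, adjusted p = 0.0133).

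Serpinh1 and Plod3 were higher in WT 24 h and in β8ITG-cKO 0 h than in WT 0 h, so the 250 bases before their start sites are shown (RefSeq, GRCm38.p6), at chr5:136986769-136987018 on the + strand and chr7:99353240-99353489 on the - strand. Capitals mark matches to any of 7 motifs searched on both strands, which were the CCAAT box (CCAAT), the GC box (GGGCGG), the ER stress element (CCAAT, 9 bases of any kind, then CCACG, so that it contains a CCAAT box), the hypoxia core (ACGTG), AP-1 (TGACTCA), a Smad-type motif (CAGACA) and the heat shock element (GAANNTTC).
Plod3: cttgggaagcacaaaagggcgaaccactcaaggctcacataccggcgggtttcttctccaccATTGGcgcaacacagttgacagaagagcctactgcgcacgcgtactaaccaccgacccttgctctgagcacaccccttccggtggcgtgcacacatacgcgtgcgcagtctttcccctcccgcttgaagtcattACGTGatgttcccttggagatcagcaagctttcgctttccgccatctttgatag
Serpinh1: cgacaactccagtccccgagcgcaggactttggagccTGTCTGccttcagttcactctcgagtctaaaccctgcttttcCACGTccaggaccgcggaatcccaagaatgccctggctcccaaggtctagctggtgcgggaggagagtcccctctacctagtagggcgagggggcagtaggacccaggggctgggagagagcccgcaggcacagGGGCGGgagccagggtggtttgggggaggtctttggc
The Plod3 window held a CCAAT box at -188 (as ATTGG) and a hypoxia core at -54 (ACGTG), and the Serpinh1 window a Smad-type motif at -213 (as TGTCTG), a hypoxia core at -171 (as CACGT) and a GC box at -37 (GGGCGG). The only motif in both was the hypoxia core, which 16.6% of 32851 such windows held, while the CCAAT box was in 33.8%, the GC box in 32.7%, the Smad-type motif in 17.1%, the heat shock element in 6.7%, AP-1 in 4.5% and the ER stress element in 0.1%. Such matches describe the letters of these windows only. Windows were given for 5 of the 10 genes.

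Of 14 other genes of ER collagen modification, 13 were tested over time in WT, and 5 were higher and 2 lower, with a median of 0.07 beside 0.16 for all genes, of which 20.9% were called higher and 8.81% lower. P4hb, the shared subunit of the prolyl 4-hydroxylases, rose by 1.16 (SE 0.14, adjusted p = 0.00132), and so did Fkbp10, a prolyl isomerase needed for telopeptide lysine hydroxylation (0.93, adjusted p = 0.00277), the galactosyltransferase gene Colgalt1 (0.82, adjusted p = 0.011) and Crtap, the partner of P3h1 (0.78, adjusted p = 0.00947). The call not yet given was Ppib, the isomerase of the same complex, named after its values were seen (0.68). Colgalt2 (-1.76, adjusted p = 0.0017) and P4ha2, a catalytic subunit of prolyl 4-hydroxylase (-1.05, adjusted p = 0.00573), fell. In β8ITG-cKO, 4 of 13 were higher and 4 lower (median 0.05), where 35.4% and 10.7% of all genes were. After rescaling, 1 was higher and 5 lower, and the calls over all genes went from 5394 higher and 1636 lower to 3217 and 3005. Those that fell before rescaling were P4ha2 (-1.32), Colgalt2 (-1.19), P4ha1 (-0.85) and P3h4, which works with P3h3 in lysine hydroxylation (-0.64).

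At 0 h, all 13 tested genes of this list had values above 0 for β8ITG-cKO minus WT (median 0.33 beside 0.02 for all genes), and 5 were called higher (4.18% of all genes), P4ha1 (0.94, adjusted p = 0.0236), P4ha2 (0.83, adjusted p = 0.0317), Colgalt1 (0.65, adjusted p = 0.0268), Fkbp10 (0.64, adjusted p = 0.015) and P3h4 (0.54, adjusted p = 0.018), the last of which was named after its values were seen. Leaving out 1 library gave 0 to 5 calls, with 0 without WT replicate 1 or β8ITG-cKO replicate 3, where the calls over all genes dropped from 1020 to 269 and 136. For example, P4ha1 was at 55.85, 59.29 and 66.58 FPKM in WT 0 h, below the β8ITG-cKO values of 92.63, 148.0 and 117.12 FPKM. At 24 h, 0 of 14 passed (6.29% of all genes), and 2 had an unadjusted p under 0.05 (20.4% of all genes).

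Of 14 genes of procollagen export and trimming, 12 were tested over time, with 5 higher and 1 lower in WT (5 and 3 after rescaling) and 8 higher and 2 lower in β8ITG-cKO (5 and 2 after rescaling). Their medians were 0.36 and 0.45, beside 0.16 and 0.23 for all genes. Higher calls were made for 20.9% of all genes in WT and 35.4% in β8ITG-cKO, and lower calls for 8.81% and 10.7%. With rescaling, the calls over all genes in WT went from 3165 higher and 1335 lower to 2195 and 2444. In β8ITG-cKO they went from 5394 and 1636 to 3217 and 3005. Bmp1, the procollagen C-proteinase that also cleaves the Lox propeptide, was at 24.46, 21.68 and 28.39 FPKM in WT 0 h and 124.62, 98.42 and 105.8 FPKM in WT 24 h, with 48.3, 45.64 and 44.55 FPKM and then 89.24, 88.65 and 92.31 FPKM in β8ITG-cKO. It was thus highest in WT 24 h and lowest in WT 0 h, with no overlap between any conditions, as for the share of Plod3. The ratios of mean FPKM over time were 4.41 in WT (adjusted p = 0.000238) and 1.95 in β8ITG-cKO (adjusted p = 0.000115). The related protease gene Tll1 rose by 2.18 and 1.37, the enhancer gene Pcolce2 by 1.98 and 1.68, and the N-proteinase gene Adamts14 by 1.34 and 1.40, while Pcolce fell by 1.21 and 1.38, in WT and β8ITG-cKO, respectively. Pcolce2 and Adamts14 passed the filter of a mean of 0.5 FPKM only through their 24 h libraries. They could thus be tested only because they were high there, and both are among the higher calls. Adamts3, another N-proteinase gene, rose in β8ITG-cKO from 0.87, 0.35 and 0.82 FPKM to 3.78, 4.8 and 3.89 FPKM (1.63, adjusted p = 0.000218). In WT it had 1.28, 2.18 and 0.66 FPKM and then 0.23, 2.15 and 1.22 FPKM, which overlapped (-0.16, adjusted p = 0.774), and its mean at 24 h was 3.46 times as high in β8ITG-cKO, a difference that did not pass (adjusted p = 0.0566). This 24 h difference passed in 2 of the 6 fits with 1 library left out. At 0 h, Bmp1 was higher in β8ITG-cKO (0.88, adjusted p = 0.00914), 1 of 11 tested, beside 4.18% of all genes called higher. It did not pass without β8ITG-cKO 0 h replicate 3, where the calls over all genes dropped from 1020 to 136. At 24 h 0 of 12 passed (6.29% of all genes), with 4 at an unadjusted p under 0.05 (20.4% of all genes).

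Of 12 collagen and elastin genes, the substrates of these enzymes, 10 were tested. In WT, 2 rose, Col1a1 (1.96, adjusted p = 0.00139) and Col5a1 (0.87, adjusted p = 0.00999), and 4 fell, all of type IV collagen, Col4a2 (-1.41), Col4a1 (-1.08), Col4a4 (-1.02) and Col4a3 (-1.01). After rescaling, 2 were higher and 6 lower in WT, with Col1a2 (-0.86, adjusted p = 0.0196) and Eln (-0.635, adjusted p = 0.0332) now lower. The calls over all genes went from 3165 higher and 1335 lower to 2195 and 2444. Before rescaling, Col1a2, the other type I collagen gene, did not pass (-0.62, adjusted p = 0.0712). It was named after its values were seen. In β8ITG-cKO, 2 rose and 6 fell, also after rescaling, with Col1a1 at 1.91 and Col4a1 at -1.66. The medians were -0.59 in WT and -0.57 in β8ITG-cKO. Of all genes, 8.81% were called lower in WT and 10.7% in β8ITG-cKO, and 20.9% and 35.4% higher. The levels differed widely, since Col1a1 reached 6.55, 8.76 and 6.96 FPKM in WT 24 h and Col4a1 remained at 660.59, 507.22 and 514.2 FPKM there. Serpinh1 stood at 2.06 ± 0.067 FPKM per 100 FPKM of the 12 substrate genes in WT 0 h and 6.92 ± 1.37 in WT 24 h, and at 2.96 ± 0.456 and 8.46 ± 1.45 in β8ITG-cKO (SD, n = 3). At 0 h, Col4a6 (0.78, adjusted p = 0.00987) and Col4a4 (0.60, adjusted p = 0.0445) were higher in β8ITG-cKO, 2 of 10 tested beside 4.18% of all genes, with 1 call after rescaling and 0 without β8ITG-cKO 0 h replicate 3. Without that library the calls over all genes dropped from 1020 to 136. At 24 h 0 of 10 passed (6.29% of all genes), with 1 at an unadjusted p under 0.05 (20.4% of all genes).

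Among 4 genes of other crosslinking and of copper supply, the transglutaminase genes Tgm2 and Tgm1 rose in both genotypes, where 20.9% of all genes were called higher in WT and 35.4% in β8ITG-cKO. Tgm2 was at 0.95, 1.04 and 0.57 FPKM in WT 0 h and 20.78, 32.82 and 13.38 FPKM in WT 24 h (3.58, adjusted p = 0.000355), and rose by 3.10 (adjusted p = 1.81e-05) in β8ITG-cKO. Tgm1 was at 6.47, 8.94 and 8.70 FPKM in WT 24 h and at 1.81, 1.82 and 1.61 FPKM in β8ITG-cKO 24 h, and its difference of -1.71 (adjusted p = 0.00162) was the only call at 24 h in the 4 lists, beside 0.644% of all genes called lower. Its 0 h values, 0.93 FPKM or less in WT, with 0.2 FPKM or less in β8ITG-cKO, lay under the pseudocount of 1, and its mean FPKM rose 13.1 times in WT and 16.4 times in β8ITG-cKO. In β8ITG-cKO over time, Tgm1 passed the filter only through its 24 h libraries. Pxdn, which forms the sulfilimine crosslinks of type IV collagen, was higher in β8ITG-cKO at 0 h (0.62, adjusted p = 0.0368), which passed with WT 0 h replicate 3 left out but with no other library left out nor after rescaling, and the copper pump gene Atp7a did not pass in any comparison.

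**Figure D4:**
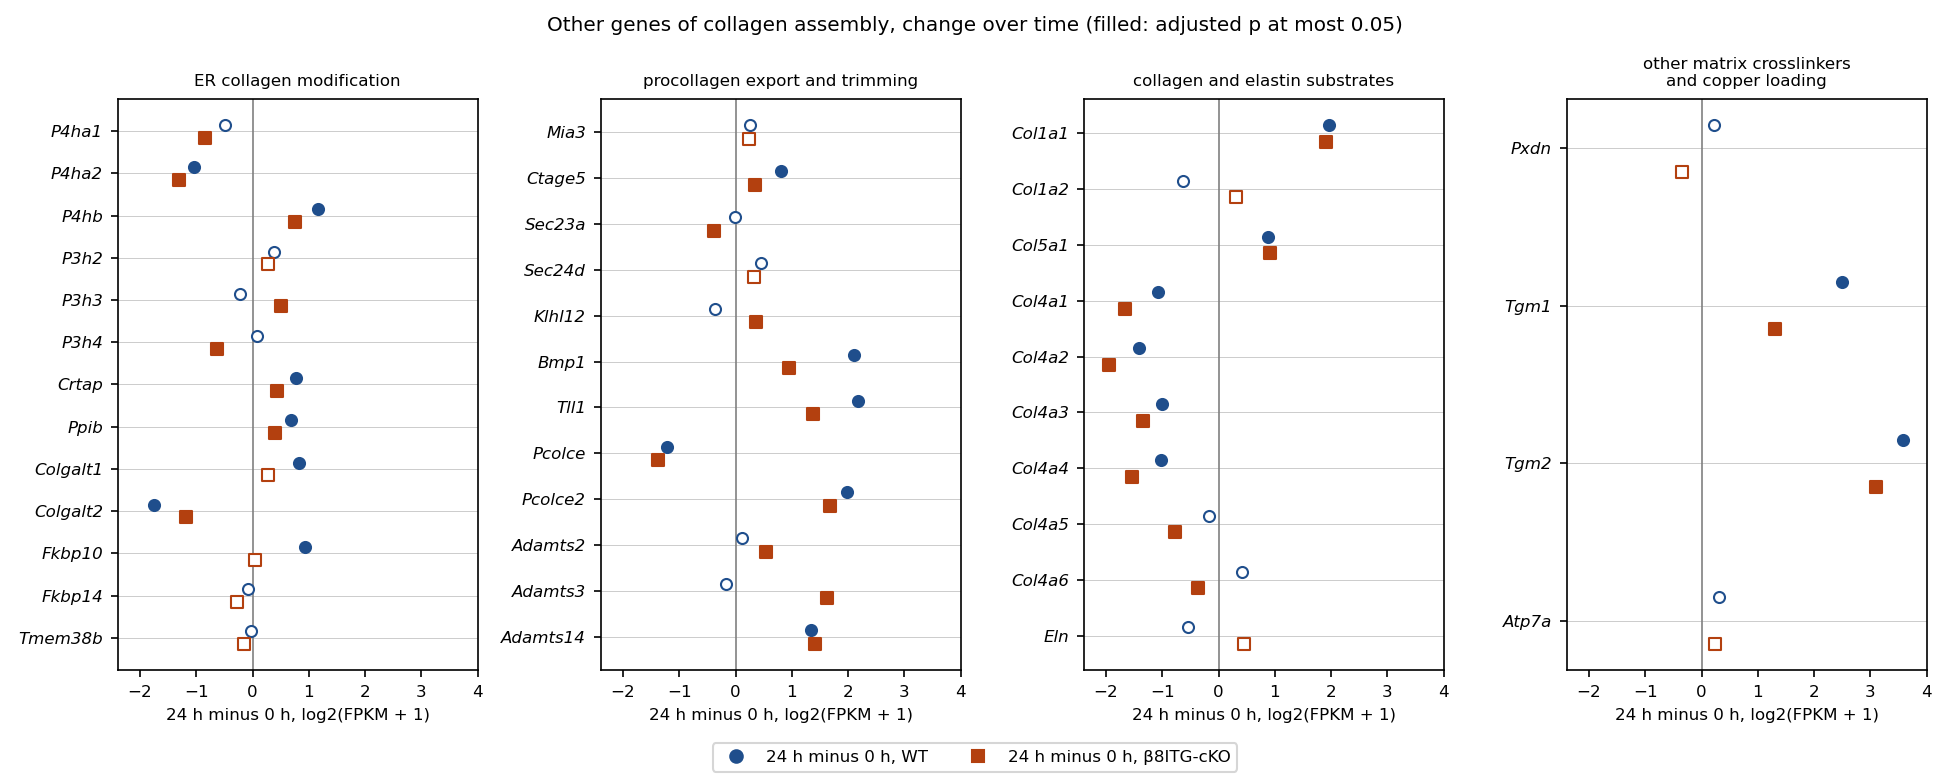
Change over time of log2(FPKM + 1) (x axis) for the tested genes of the 4 lists, with circles for WT and squares for β8ITG-cKO, filled where the adjusted p was at most 0.05. In both genotypes Tgm2 has the largest rise, and Col4a1 to Col4a4 lie below 0 while Col1a1 and Col5a1 lie above it.

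Genes whose pattern over the 12 libraries was most like 3 of the enzymes were looked up among 3933 genes averaging 10 FPKM or more. For Lox these were Vat1, the fibronectin receptor subunit gene Itga5 and Ptx3 (Pearson r of log2(FPKM + 1) 0.977, 0.971 and 0.968). For Serpinh1 they were the laminin gene Lamb1, Snapc1 and the secreted protease gene Htra1 (0.954, 0.945 and 0.945), and for Plod2, with lower values, Dpysl2, the transferrin receptor gene Tfrc and Ldlrad3 (0.825, 0.81 and 0.806). These values describe libraries that share condition and scaling.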

How the data were processed

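RNA of 12 libraries (3 per condition) was made with a stranded total RNA kit and sequenced. The submitters' processing notes name FastQC, cutadapt 1.12, TopHat2 2.1.0 and Cuffdiff 2.2.1, with the build given as mm10 and GRCm38.p5. FPKM per library were computed by the authors with Cuffdiff and deposited in 4 tables, 1 for each pair of conditions, with values for each library that were equal between tables. The 16 columns of group values and the authors' fold changes and p-values were not used. Of the 45859 genes, 17 rows repeated a symbol.

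Values were tested as log2(FPKM + 1) with limma-trend (limma 3.58.1, R 4.3.3) for genes averaging 0.5 FPKM or more over the libraries compared. Each fit used the 6 libraries of its comparison, or all 12 for the difference between changes over time. Genes with a Benjamini-Hochberg adjusted p of at most 0.05 over all genes tested were called. The study's criteria of fold change, difference and level were counted only among these calls. Such counts thus rest on limma-trend and not on the study's own p-values. Differences over time are 24 h minus 0 h, and between genotypes β8ITG-cKO minus WT. The fit was tested on simulated data with known changes. Tables came from Python 3.11.15 (pandas 2.3.3, scipy 1.17.1, numpy 2.4.6) and plots from matplotlib 3.10.9. Alternatives were the pseudocount, the filter, rescaling to the same median, the replicate number as a block, 1 fit over all 12 libraries and leaving out each library.

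The 10 enzymes and all lists were chosen with earlier results of these data known. Named from 4 lists (ER modification, export and trimming, substrates, other crosslinkers) were genes called in a comparison, at most 4 of largest change per list and direction. Of 9 marker lists (lens epithelium, lens fiber, photoreceptor, neutrophil, macrophage, pigment cell, endothelium and red cell, corneal epithelium, corneal and scleral stroma), the most abundant gene and markers at 0 were named. Genes of like pattern were the 3 of highest Pearson r for Lox, Plod2 and Serpinh1, leaving out predicted genes and pseudogenes. Since each library pools capsules, p-values measure the spread between pools, not between animals.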

Additional observations from a re-analysis of the deposited data

Results flagged for a closer look

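For 10 of the 48 enzyme and pathway genes tested, beside 9.39% of all genes, the change over time differed between the genotypes in the test of that difference itself (limma-trend over 12 libraries, β8ITG-cKO minus WT on the log2(FPKM + 1) scale). Among the enzymes this was Plod3 (-0.9, adjusted p = 0.0213). Of ER collagen modification, it was P3h4 (-0.71, adjusted p = 0.00921) and Fkbp10 (-0.88, adjusted p = 0.00915), the latter of which rose by 0.93 in WT and had 0.05 in β8ITG-cKO. Of export and trimming, Bmp1 (-1.15, adjusted p = 0.00537) and Tll1 (-0.81, adjusted p = 0.0221) had the smaller rise in β8ITG-cKO, and Klhl12, an adaptor for the ubiquitination of a procollagen carrier coat protein (0.72, adjusted p = 0.03), and the procollagen protease gene Adamts3 (1.79, adjusted p = 0.0299) had differences above 0. Of the substrates, it was Col4a6 (-0.78, adjusted p = 0.046) and Eln (1.0, adjusted p = 0.0449), and of the other crosslinkers Tgm1 (-1.18, adjusted p = 0.0131). For Tgm1 the direction rests on the log2(FPKM + 1) scale, since its ratios of mean FPKM over time were 13.1 in WT and 16.4 in β8ITG-cKO, with 0 h means of 0.613 and 0.106 FPKM. The calls of P3h4, Fkbp10, Bmp1 and Tgm1 were kept with any 1 of the 12 libraries left out, whereas Tll1 was called in 8, Adamts3 in 5, Klhl12 in 4, and Eln and Col4a6 in 2 of those 12 fits.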

How the results depend on the processing

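Of 585 values of the 10 enzymes under alternatives, 533 kept direction and side of the threshold, 27 lost the threshold, 13 gained it and 12 changed sign, none of them among the 12 called differences. The number of enzymes called in WT over time (4) was 2 with no filter and 2 with a minimum mean of 2 FPKM, and in β8ITG-cKO over time (4) it was 2 with that minimum. That minimum left Lox untested in both genotypes, Loxl3 in WT and Loxl4 in β8ITG-cKO. At 24 h (0) the number called was 1 in a fit over all 12 libraries, and at 0 h (3) it was 1 with no filter. Leaving out 1 library gave 2 to 4, 3 to 5, 0 to 1 and 1 to 3 enzymes in these 4 comparisons, and 0 to 3 for the difference between changes over time. For all genes, the count was 574 with the 2 FPKM minimum and 1538 in the fit over all 12 libraries at 24 h (966), 254 with no filter at 0 h (1020), and 930 with the 2 FPKM minimum for the difference between changes (1433). Leaving out 1 library gave 2512 to 5087, 5639 to 6300, 439 to 1108, 136 to 756 and 688 to 1921 genes. The signs that changed were of values not called: with 1 library left out, Loxl1 in WT over time had -0.206 to 0.016, Serpinh1 in β8ITG-cKO over time -0.165 to 0.024 and between genotypes at 24 h -0.025 to 0.367, and for the difference between changes Plod1 had -0.442 to 0.023 and Plod2 -0.129 to 0.174, with -0.029 after rescaling. The cause was not tested.

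With the replicate number as a block, 3, 4, 0, 2 and 1 enzymes were called, and for all genes 269 at 0 h. Loxl3 in WT over time (adjusted p = 0.0731) and Plod3 at 0 h (adjusted p = 0.077) lost the threshold. Same-numbered libraries did not deviate together (correlations of -0.249 to 0.096), and the labels do not state a pairing. With 3 libraries per condition, these correlations cannot exclude one. The rescaled and left-out fits of the 4 pathway lists were chosen after seeing the data. Read depth is unknown, which limits the values of low genes such as Lox and Loxl4 at 0 h.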

Other observations

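Genes that lie within the deposited spans of Loxl3 and Plod3 had levels of their own. Aup1, a lipid droplet and ER protein gene within the span of Loxl3, had 9.93, 11.71 and 8.9 FPKM at 0 h and 26.53, 28.55 and 22.87 FPKM at 24 h in WT, and 10.86, 13.7 and 12.08 FPKM and then 25.13, 23.32 and 24.82 FPKM in β8ITG-cKO. Htra2, a mitochondrial protease gene in the same span, had 2.91, 3.22 and 3.15 FPKM and then 7.58, 6.63 and 4.86 FPKM in WT. Znhit1, a chromatin remodeling subunit gene within the span of Plod3, had 9.18, 7.22 and 5.23 FPKM at 0 h and 15.21, 17.02 and 11.41 FPKM at 24 h in WT, and 9.32, 6.66 and 10.01 FPKM and then 15.48, 14.16 and 15.57 FPKM in β8ITG-cKO. For these 3 genes, chosen from the neighbors after their values were seen, every 24 h library was above every 0 h library in the values given (31.3% of all genes in WT and 42.9% in β8ITG-cKO). Some neighbors in other spans, also chosen after their values were seen, went the other way in WT. Gm27177 in the span of Loxl2 was at 1.65, 1.66 and 2.15 FPKM and then 1.23, 1.43 and 1.5 FPKM, and B430319G15Rik in that of Plod2 at 1.25, 0.75 and 1.17 FPKM and then 0.46, 0.47 and 0.44 FPKM (15.6% of all genes). In β8ITG-cKO the times overlapped for both genes. Gm21685, also in the span of Loxl2, did not fall in WT, with 3.05, 2.1 and 2.03 FPKM and then 3.43, 2.41 and 2.47 FPKM. Whether reads were shared between these genes was not tested.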
